A study of Caenorhabditis elegans with 12 samples.

Results

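The histone genes described here are the 78 genes, of 22191 in the mRNA table, whose NCBI gene number maps to a Caenorhabditis elegans symbol that starts with his- or hil-, together with htz-1, hcp-3 and cpar-1. Membership was set by name and by no measured value, though the group was chosen with earlier results of these data known. The annotation holds 83 genes under the same rule, and the other 5 (his-20, his-22, his-42, his-52 and his-73) were not analysed here. Sorted by the length of the annotated coding sequence and by known names, 17 are H2A genes, 13 H2B, 14 H3 and 16 H4. A further 5 are of the H3.3 type (his-69, his-70, his-71, his-72 and his-74), 2 of the CENP-A type (hcp-3 and cpar-1), 1 is the H2A.Z gene htz-1 and 9 are linker histone genes (his-24 and hil-1 to hil-8). The remaining gene, his-39, has an annotated coding sequence of only 204 bases and was left unclassed.

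RNA of whole worms was sequenced from CN30, a strain that the labels call trans-nuclear, and from N2, the wild-type laboratory strain. CN30 had 3 libraries at day 0 and 1 each at days 6, 9 and 12, and N2 had the same, so that each strain gave 6 libraries. All worms were fed E. coli OP50 on agar plates, with no other treatment in the labels. The labels do not tell from which stage days were counted, or whether libraries of the same strain and day came from separate cultures. Nor do they tell where the nuclear and mitochondrial genomes of CN30 came from. P-values therefore measure the spread between these libraries, which may be technical. In the tests of age and of the interaction, days 6, 9 and 12 form 1 group, so change between these days enters that spread.

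Histones are the proteins around which DNA is wound. The nucleosome core holds H2A, H2B, H3 and H4, and linker histones bind the DNA between cores. Most core histone genes are replication dependent: they sit in clusters, their mRNAs end in a stem-loop in place of a poly(A) tail, and they are made in large amounts when cells copy their DNA. Variants such as H3.3 and H2A.Z are made outside replication as well, and CENP-A takes the place of H3 at centromeres. In adult hermaphrodites the somatic cells no longer divide, and DNA is copied mainly in the germ line and in the embryos. The labels do not state whether libraries were made from poly(A) RNA or after removal of ribosomal RNA, a choice that changes how well tail-less mRNAs are captured.

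Of the 78 genes, 57 lie in 8 position clusters, here defined as 3 or more members with neighbours less than 100000 bases apart (WBcel235 coordinates). The chromosome II cluster holds 12 genes between 13817760 and 13827709. Chromosome IV has cluster a with 4 genes (7485834 to 7488659), cluster b with 6 genes (8331044 to 8336340) and cluster c with 12 genes (11324056 to 11407427). Chromosome V has cluster a with 5 genes (8532715 to 8536716), cluster b with 11 genes (8847393 to 8898539), cluster c with 3 genes (9544659 to 9547607) and cluster d with 4 genes (16040144 to 16042831). The other 21 genes, among them all linker genes and all variants, lie alone or in pairs. Among neighbouring histone genes 28 pairs point away from each other across 227 to 368 bases. Of these divergent pairs, 13 join an H2A to an H2B gene and 14 an H3 to an H4 gene.

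Several copies cannot be told apart in these values. A total of 31 members fall into 13 sets with identical FPKM in all 12 libraries, which leaves 60 distinct patterns among the 78 genes. FPKM, the deposited unit, is fragments per kilobase of gene, scaled to the mapped fragments of the library, so levels of genes are compared per length throughout. On chromosome II the identical sets are his-15, his-11 and his-44 (H2B), his-14, his-10 and his-26 (H4), his-13, his-9 and his-25 (H3), and his-12 and his-43 (H2A). On chromosome IV they are his-29 and his-34 (H2B) and his-30 and his-33 (H2A) in cluster b, and his-47 and his-65 (H2A), his-46 and his-56 (H4), his-45 and his-55 (H3) and his-58 and his-66 (H2B) in cluster c. The H2A gene his-57 equals his-47 in 10 of the 12 libraries and differs by at most 0.94 FPKM in the others. Those of cluster b on chromosome V are his-51, his-53, his-21 and his-19 (H2A), his-49 and his-27 (H3), and his-50 and his-28 (H4). The files do not show how reads that match several copies were assigned, so each set is 1 measurement, and sums over copies may count the same reads more than once.

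Other values depend on how transcripts were assembled. The assembled locus MXLOC_014934 (chromosome V, 8847943 to 8890448) overlaps both his-49 and his-27 and carries exactly their values. The H2A.Z gene htz-1 (chromosome IV, 4446216 to 4446999) was listed at 0 in 9 libraries and at 2.08, 17.9 and 0.10 FPKM in the N2 day-0 libraries. The assembled locus MXLOC_010582, which overlaps it on the same strand (4445985 to 4446999), had 733, 786 and 702 FPKM in CN30 at days 6, 9 and 12, against 266, 269 and 248 at day 0. In N2 it had 689, 535 and 586 FPKM at days 6, 9 and 12, against 238, 228 and 197 at day 0. The 0 of htz-1 is therefore no measure of H2A.Z mRNA, and the locus, which rose in both strains (log2 difference 1.50 ± 0.07 SE, adjusted p = 1.64e-05 in CN30; 1.44 ± 0.12 SE, adjusted p = 7.7e-05 in N2), is the nearest value to it. Loci also overlap hil-1, hil-7 and hil-8 on the same strand.

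The mRNA table summed to 726252 to 779302 FPKM in the libraries of days 6 to 12, against 874694 to 911271 FPKM in those of day 0, and the sequencing depth is unknown. N2 day-0 replicate 2 stood apart from the other N2 day-0 libraries, with 20664 FPKM summed over histone genes against 19937 and 17297 but only 252 in the chromosome II cluster against 940.3 and 847. For cluster b of chromosome V it had 87.5 FPKM against 305 and 296. On the second principal component of the 12 libraries it lay at 31.9 against 1.33 and -2.40, and N2 day 12 at -3.50 against 52.9 and 46.0 for N2 days 6 and 9. Values without these libraries are given where they matter.

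**Figure D1:**
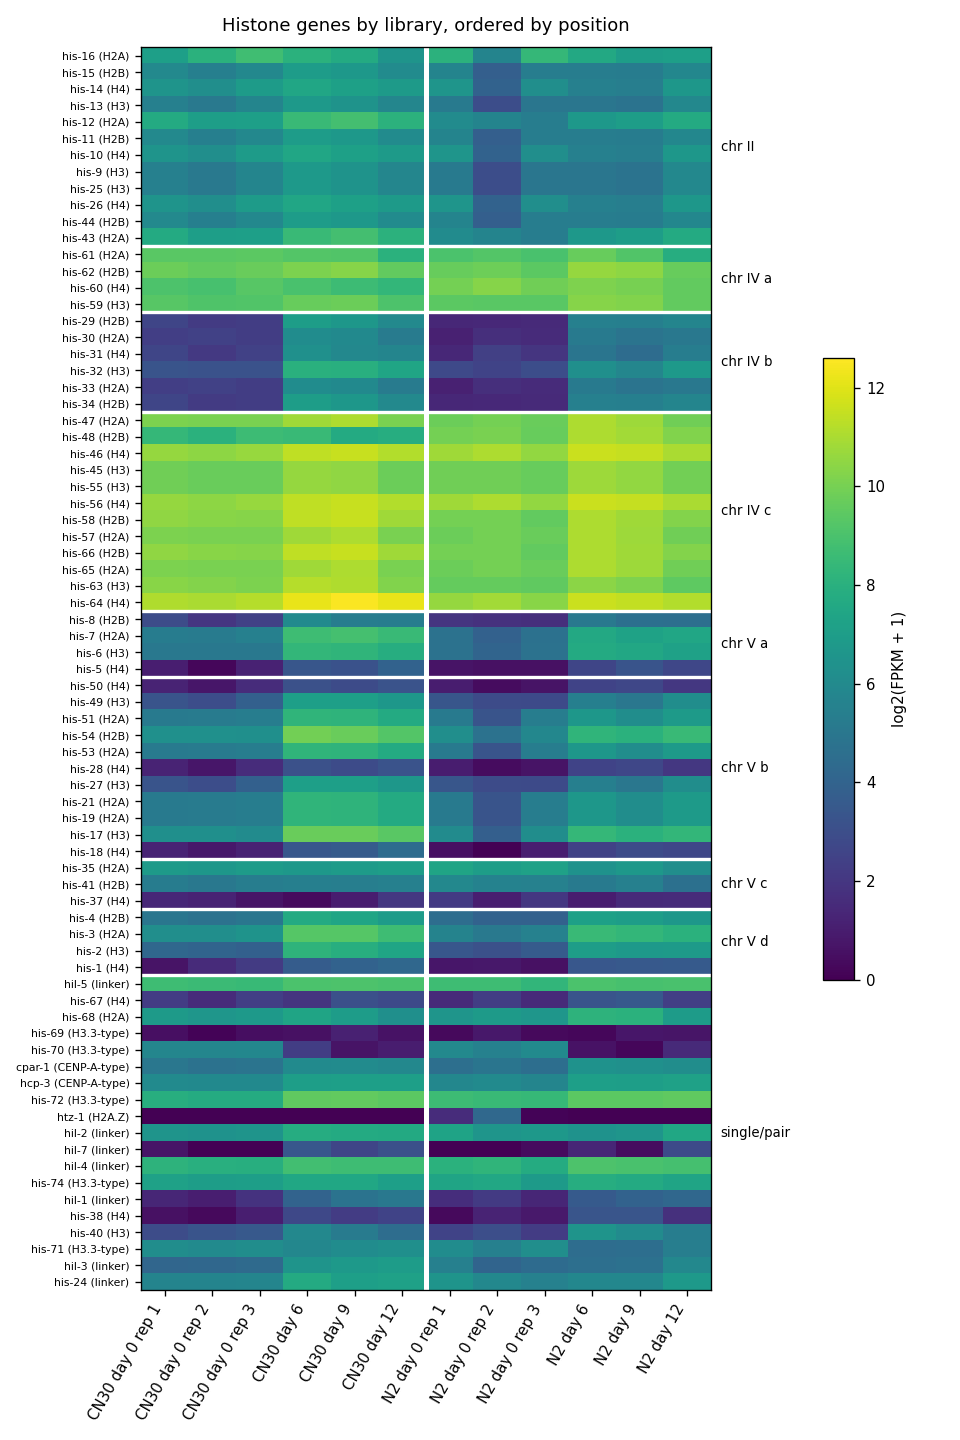
Level of each of the 75 histone genes that reach 1 FPKM in some library, as log2(FPKM + 1) by colour; rows are genes in order of position with their class, columns are the 6 CN30 libraries followed by the 6 N2 libraries, and white lines part the position clusters (chr IV a to c and chr V a to d as defined in the text). Cluster c of chromosome IV is the brightest block in every library, and clusters IV b, V a, V b and V d are brighter at days 6 to 12 than at day 0 in both strains.

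Histone genes made up a larger part of the mRNA table in old worms than at day 0. Their share of summed FPKM was 5.30, 5.70 and 4.01% in CN30 at days 6, 9 and 12, against 2.34, 2.21 and 2.29% at day 0. In N2 it was 4.90, 4.25 and 3.301% at days 6, 9 and 12, against 2.23, 2.33 and 1.93% at day 0. In neither strain do the groups overlap, and the share was lowest at day 12 among the later libraries. Counted with each identical set once, the 60 patterns summed to 29594, 31498 and 21589 FPKM at days 6, 9 and 12 in CN30, against 15449, 14223 and 15329.7 at day 0.

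Each core class showed the same order of groups. With every gene counted, the H4 genes summed to 11091, 12773 and 9919.7 FPKM at days 6, 9 and 12 in CN30, against 6090.4, 5585 and 6627 at day 0. The H2A genes summed to 9580.4, 10631 and 6007 FPKM at the later days and 5063, 4888 and 5107 at day 0 in CN30. H2B and H3 sums at the later days were between 5045 and 8975 FPKM in CN30, against 3685 to 4519 at day 0. In N2 the sums of all 4 core classes at days 6, 9 and 12 were also above each of their own day-0 values.

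Most of this RNA came from chromosome IV. Clusters a and c together held 72.4, 75.1 and 71.7% of the histone FPKM at days 6, 9 and 12 in CN30, against 83.8, 84.0 and 82.9% at day 0. In N2 they held 83.6, 83.1 and 73.7% at days 6, 9 and 12, against 82.7, 88.4 and 82.9% at day 0. The most abundant member of each core class by its mean over the 12 libraries lies in cluster c: the H4 gene his-64 (2868 FPKM), the H2B genes his-58 and his-66 (1609.7 FPKM, counted as 1 pattern), the H2A gene his-57 (1314 FPKM) and the H3 gene his-63 (1246 FPKM). The share of the 4 smaller clusters IV b, V a, V b and V d was 14.7, 13.1 and 14.1% at days 6, 9 and 12 in CN30, against 2.61, 2.76 and 2.76% at day 0. In N2 it was 6.63, 6.19 and 10.1% at the later days, against 2.28, 0.935 and 2.54% at day 0.

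Genes that share a start region often differed in level in the FPKM listed. Some pairs were nearer, such as the H2B gene his-58 at 91.2 to 164% of the H2A gene his-57 over the libraries. The split of reads among near-identical copies may enter these levels, and its part was not tested. In the 14 divergent pairs of an H3 and an H4 gene, the H4 gene was below its partner in every library in 7 pairs and above it in every library in 6. These counts include pairs of identical genes, which repeat the same values and are not separate measurements. Such repeats are the pairs of his-14, his-10 and his-26 on chromosome II and those of his-46 and his-56 in cluster c of chromosome IV. The pairs of his-50 and his-28 in cluster b of chromosome V are repeats as well. All 6 such pairs on chromosomes V and X belong to the first kind: H4 stood at 0 to 26.9% of the H3 partner over pairs and libraries, and the median over libraries lay between 1.45% and 10.01% in each pair. In cluster b of chromosome V the H3 gene his-17 averaged 304 FPKM over the 12 libraries and its partner his-18 averaged 5.27 FPKM. On chromosome IV the order was the other way in cluster c, where the H4 gene his-64 averaged 2868 FPKM and its partner his-63 averaged 1246 FPKM. The seventh pair with low H4 is his-31 beside his-32 in cluster b of chromosome IV (25.05 and 79.0 FPKM). In divergent pairs of an H2B and an H2A gene, the median over libraries ranged from 12.1% (the H2B gene his-8 against his-7) to 285% (the H2B gene his-54 against his-53).

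The first comparison asks how histone genes differ between old and young worms of a strain. Most core genes of the clusters IV b, V a, V b and V d were several-fold higher at days 6 to 12 in both strains, linker genes rose in CN30, and the H3.3-type gene his-70 fell in both. In CN30, of the 73 members that passed the filter of 1 FPKM in 3 libraries, 53 rose and 1 fell at an adjusted p under 0.05, and 19 did not pass. The others, hil-6, hil-8, his-39, his-69 and htz-1, were too low to be tested. The same test called 80.9% of all genes tested, 46.0% higher and 34.9% lower. In N2, where hil-7 was too low as well, of 72 members, 46 rose, 4 fell and 22 did not pass, against 72.7% of all genes called, 40.7% higher and 32% lower. With identical genes counted once, 37 of 55 rose and 1 fell in CN30, and 35 of 54 rose and 4 fell in N2. The median log2 difference of the members was 1.14 in CN30 and 0.90 in N2, against 0.24 and 0.14 over all genes tested. Relative to all genes the medians were 0.90 in CN30 and 0.76 in N2. Between 44 and 64 members were called in CN30, and between 39 and 48 in N2, when 1 library was left out. Of the calls, 42 in CN30 and 33 in N2 passed under every alternative tried.

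Cluster b of chromosome IV had the largest median difference of the clusters in both strains. Beside the 46.0% of all genes in CN30 and 40.7% in N2 that rose, all 6 of its genes rose in both strains. Their median log2 differences were 3.88 in CN30 and 3.53 in N2, and all 6 passed under every alternative. Its H3 gene his-32 had 254, 249 and 167 FPKM at days 6, 9 and 12 in CN30, against 8.82, 7.94 and 8.13 at day 0. In N2 it had 75.8, 53.6 and 107 FPKM at the later days, against 5.78, 4.74 and 6.84 at day 0. Every later library was above every day-0 library of its strain (log2 difference 4.57 ± 0.17 SE, adjusted p = 1.25e-05 in CN30; 3.51 ± 0.26 SE, adjusted p = 4.66e-05 in N2). The identical H2B genes his-29 and his-34 had 126, 100.5 and 60.5 FPKM at days 6, 9 and 12 in CN30, against 5.14, 3.59 and 3.95 at day 0, and 44.2, 43.0 and 53.0 FPKM at the later days in N2, against 1.63, 1.69 and 1.87 at day 0, with no overlap in either strain. Their log2 differences were 4.16 ± 0.28 SE, adjusted p = 3.09e-05, in CN30 and 4.12 ± 0.14 SE, adjusted p = 1.52e-05, in N2. The H2A genes his-30 and his-33 rose by 3.43 ± 0.24 in CN30 and by 3.53 ± 0.19 in N2 on the log2 scale, and the H4 gene his-31 by 3.60 ± 0.20 and 2.98 ± 0.33 (SE; adjusted p = 3.59e-05, 1.97e-05, 2.02e-05 and 0.000238 in that order).

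**Figure D2:**
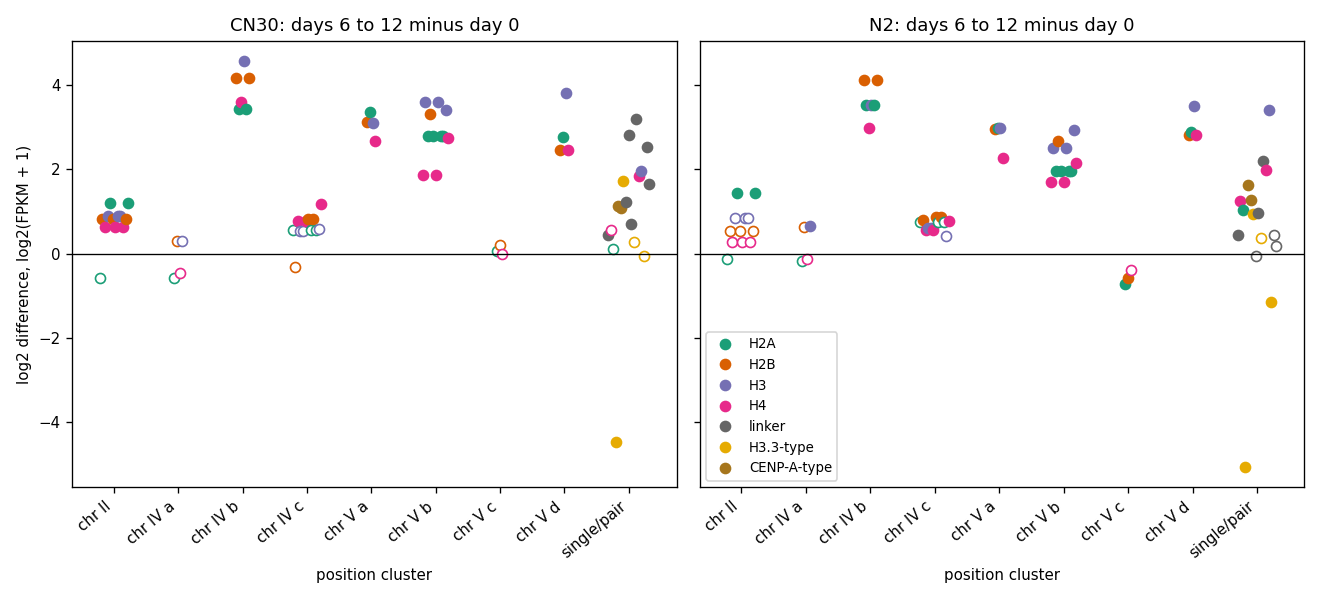
Log2 difference of days 6 to 12 minus day 0 for each histone gene that entered the test, in CN30 (left) and N2 (right), grouped by position cluster and coloured by class; filled points have an adjusted p under 0.05 and open points do not. The clusters IV b, V a, V b and V d lie wholly above 1 with filled points, IV a, IV c and V c lie nearer 0, and his-70 is the lowest point at -4.48 in CN30 and -5.06 in N2.

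The small clusters of chromosome V rose as well, beside the 46.0% of all genes in CN30 and 40.7% in N2 that rose. In cluster a the 4 genes that could be tested rose in both strains (median log2 difference 3.104 in CN30 and 2.97 in N2), and the unclassed his-39 stayed at or below 0.24 FPKM in every library. Its H2A gene his-7 had 409, 479 and 366 FPKM at days 6, 9 and 12 in CN30, against 37.7, 36.4 and 44.4 at day 0, and 196, 151 and 173 FPKM in N2, against 26.3, 14.1 and 25.2 at day 0. In cluster d, which holds the H4, H3, H2A and H2B genes his-1 to his-4, all 4 genes rose in both strains. Its H3 gene his-2 had 291, 241 and 168 FPKM at the later days in CN30, against 17.6, 15.4 and 13.5 at day 0 (log2 difference 3.80 ± 0.21 SE, adjusted p = 2e-05). In N2 his-2 had 129, 113 and 114 FPKM at the later days, against 9.84, 7.78 and 11.2 at day 0 (log2 difference 3.51 ± 0.14 SE, adjusted p = 1.54e-05). The H4 gene his-1, at 17.2 FPKM or less in every library, rose by 2.46 ± 0.39 in CN30 and 2.81 ± 0.16 in N2 (log2 difference with SE; adjusted p = 0.00112 and 2.02e-05).

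Cluster b of chromosome V rose in all 11 genes of both strains, with a median log2 difference of 2.79 in CN30 and 1.96 in N2. The 11 genes hold 6 distinct patterns, and of all genes 46.0% rose in CN30 and 40.7% in N2. Summed over the cluster, FPKM was 3302, 3151 and 2321 at days 6, 9 and 12 in CN30, against 321, 317 and 332 at day 0, a ratio of means of 9.05. In N2 the sums were 1135, 889 and 1315 at the later days, against 305, 87.5 and 296 at day 0, a ratio of 4.85. The low value of N2 day 0 is replicate 2. The N2 median is the value of the H2A gene his-51 and its identical copies, 1.96 ± 0.55 (SE), which was 1.30 without that replicate. All 11 calls passed under every alternative in CN30. In N2, 7 did, and the identical H2A genes his-51, his-53, his-21 and his-19 missed the threshold without the day-12 library. The other ratios of cluster sums, later days over day 0, were 20.1 in CN30 and 16.7 in N2 for IV b, 9.87 and 8.16 for V a, and 7.67 and 8.23 for V d.

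The clusters with the highest levels differed less. Cluster c of chromosome IV summed to 26446, 29377 and 18978 FPKM at days 6, 9 and 12 in CN30, against 15092, 13809 and 14575 at day 0, and 5 of its 12 genes rose. In N2 the sums were 26647, 23337 and 15468 FPKM, against 13442, 14859.7 and 11551 at day 0, and 8 of 12 rose. Ratios of means were 1.72 in CN30 and 1.64 in N2. The counts stand beside the 46.0% of all genes in CN30 and 40.7% in N2 that rose. The 12 genes hold only 8 distinct patterns. The H4 gene his-64 had 4571, 5939.6 and 4584 FPKM at days 6, 9 and 12 in CN30, against 2167, 2072 and 2344 at day 0, and rose (log2 difference 1.19 ± 0.13 SE, adjusted p = 0.000219). In N2 it had 3037, 2749.8 and 2230.0 FPKM, against 1567, 1822 and 1333 at day 0 (log2 difference 0.76 ± 0.17 SE, adjusted p = 0.00568), a call that median-ratio rescaling ended. The H2B genes his-58 and his-66 rose by 0.83 ± 0.20 in CN30 and 0.86 ± 0.22 in N2 (log2 difference with SE; adjusted p = 0.00771 and 0.0119). Median-ratio rescaling ended both calls, and quantile normalization moved the values to 1.45 and 1.49. The H3 gene his-63 did not pass in either strain (0.59 ± 0.26 in CN30 and 0.43 ± 0.24 in N2, adjusted p = 0.0791 and 0.143). In each strain it passed in 2 of 10 alternatives, without the day-12 library and under quantile normalization, at 1.20 in CN30 and 1.06 in N2.

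In cluster a of chromosome IV no gene was called in CN30 and in N2 only the H3 gene his-59, whose call 6 of 10 alternatives ended, and the sums had ratios of later days to day 0 of 1.01 in CN30 and 1.25 in N2. In the chromosome II cluster 11 of 12 genes rose in CN30, where the sums were 2227, 2129 and 1342 FPKM at days 6, 9 and 12, against 1142, 985 and 1385 at day 0. The call of each of the other 9 was lost under at least 1 alternative, and the identical H2A genes his-12 and his-43 passed under every alternative in both strains (372, 458 and 269 FPKM at the later days in CN30, against 209, 134 and 135 at day 0; log2 difference 1.19 ± 0.25 SE, adjusted p = 0.00415). In N2 only his-12 and his-43 rose in this cluster (log2 difference 1.44 ± 0.29 SE, adjusted p = 0.00402). Its 12 genes hold 5 distinct patterns, and of all genes 46.0% rose in CN30 and 40.7% in N2. Cluster c of chromosome V was the only cluster with falls: in N2 the H2A gene his-35 had 84.2, 105 and 74.3 FPKM at the later days, against 161, 129 and 145 at day 0 (log2 difference -0.72 ± 0.15 SE, adjusted p = 0.00435), and its divergent H2B neighbour his-41 fell by 0.57 ± 0.22 on the log2 scale (SE, adjusted p = 0.0486), a call that 7 of 10 alternatives ended. In CN30 his-35 had 105, 118 and 131 FPKM at the later days, against 114, 102 and 119.7 at day 0, groups that overlap (log2 difference 0.07 ± 0.11 SE, adjusted p = 0.537).

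**Figure D3:**
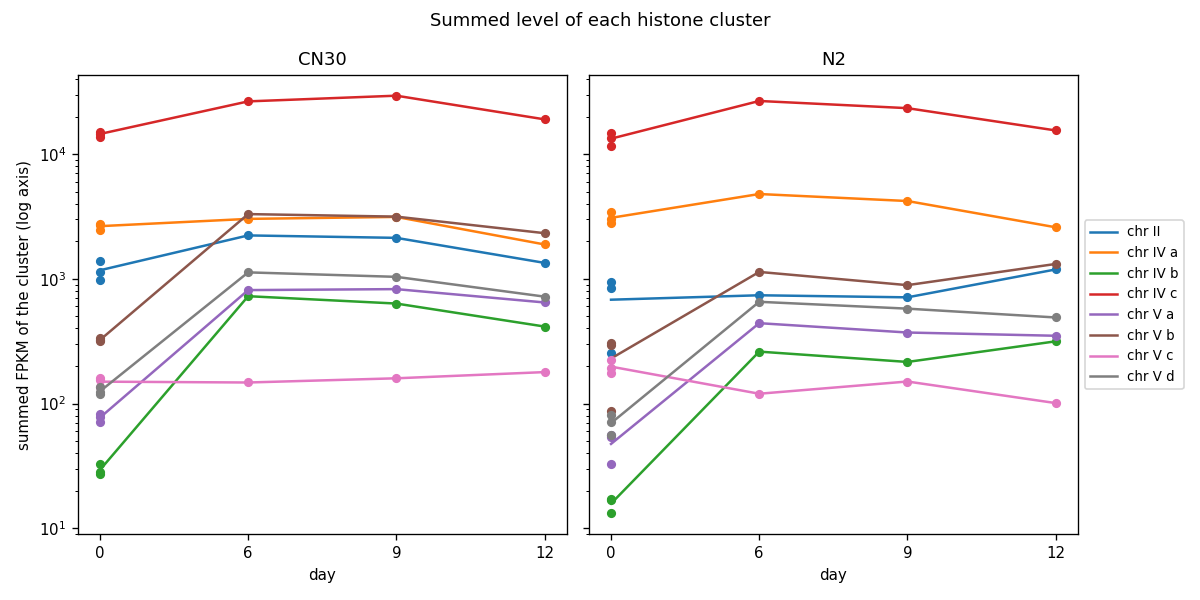
Summed FPKM of each position cluster (log axis) against day for CN30 (left) and N2 (right); points are libraries, with 3 at day 0, and lines join the day-0 mean to the single libraries of days 6, 9 and 12. Clusters IV b, V a, V b and V d climb steeply between day 0 and day 6 in both strains, while IV c, the highest line, runs between 11551 and 29377 FPKM.

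Among the later libraries, each day is 1 library per strain, and differences between days have no replicate check. In CN30, 59 of the 75 genes that reach 1 FPKM in some library were lower at day 12 than at day 6 and 15 were higher. In N2, 38 were lower and 36 higher. The share of all genes that were lower at day 12 is not given here, so these counts have nothing to stand beside. The whole mRNA table summed to 767859 FPKM at day 6 and 726252 at day 12 in CN30, and to 767180 and 742372 in N2. Identical copies are counted separately: the 12 genes of chromosome II hold 5 distinct patterns, the 11 of cluster V b 6 and the 12 of cluster IV c 8. The strains parted most in the chromosome II cluster, which summed to 2227, 2129 and 1342 FPKM at days 6, 9 and 12 in CN30 and to 738, 710.1 and 1188 in N2. There all 12 genes were lower at day 12 than at day 6 in CN30, and 11 of 12 were higher in N2. For cluster b of chromosome V, 8 of 11 genes were lower at day 12 in CN30 and 8 of 11 higher in N2. Cluster c of chromosome IV was lower at day 12 in both, for 11 of 12 genes in CN30 and 12 of 12 in N2.

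Among the H3.3-type genes, whose protein can be laid down outside DNA replication, his-72 and his-70 moved in opposite directions. The gene his-72 (chromosome III, 12367475 to 12369050), the most abundant of them, had 734, 769 and 686 FPKM at days 6, 9 and 12 in CN30, against 240.0, 215 and 211 at day 0. In N2 it had 696, 697 and 737 FPKM at the later days, against 396, 369 and 344 at day 0. All later libraries were above all day-0 libraries, and the call passed under every alternative (log2 difference 1.71 ± 0.08 SE, adjusted p = 1.6e-05 in CN30; 0.94 ± 0.08 SE, adjusted p = 7.96e-05 in N2). The gene his-70 (chromosome III, 4059715 to 4060119) had 3.89, 0.60 and 1.03 FPKM at days 6, 9 and 12 in CN30, against 53.4, 54.6 and 56.8 at day 0. In N2 it had 0.51, 0.18 and 1.81 FPKM, against 60.6, 45.0 and 64.1 at day 0. It fell in both strains (log2 difference -4.48 ± 0.40 SE, adjusted p = 8.7e-05 in CN30; -5.06 ± 0.34 SE, adjusted p = 3.37e-05 in N2).

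Sperm markers fell with his-70. The 11 sperm markers in the table summed to 134, 26.7 and 32.5 FPKM at days 6, 9 and 12 in CN30, against 2581, 2589 and 2475 at day 0, and to 13.3, 11.3 and 52.2 FPKM in N2, against 2024, 2337 and 1892 at day 0. All 10 that could be tested fell in both strains, beside the 34.9% of all genes in CN30 and 32% in N2 that fell. No sperm marker is at 0 in all libraries. The fall was not limited to sperm markers. All 6 body-wall muscle markers fell in both strains, as did 10 of 10 cuticle markers in CN30 and 7 of 10 in N2. In RNA of whole worms, fewer cells of a type and less RNA per cell cannot be told apart, and the part of sperm in the fall of his-70 was not tested.

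The other detected H3.3-type genes are his-71 and his-74. The gene his-71 (chromosome X, 7981382 to 7982070) fell in N2, where it had 21.5, 22.8 and 40.4 FPKM at days 6, 9 and 12, against 69.3, 44.5 and 73.1 at day 0 (log2 difference -1.14 ± 0.29 SE, adjusted p = 0.0116). In CN30 it had 55.9, 68.3 and 75.9 FPKM at the later days, against 70.2, 63.3 and 72.5 at day 0, and the groups overlap (log2 difference -0.05 ± 0.12 SE, adjusted p = 0.721). The difference between these age changes did not pass (log2 difference 1.09 ± 0.35 SE, adjusted p = 0.105), and it passed in 2 of 17 alternatives, without N2 day-0 replicate 2 and without the N2 day-12 library. The gene his-74 did not pass in either strain (0.28 ± 0.12 in CN30 and 0.36 ± 0.21 in N2 on the log2 scale, adjusted p = 0.0741 and 0.157), at 117 to 229 FPKM in all libraries. The gene his-69, beside his-70 on the same strand, stayed at or below 1.21 FPKM.

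Both CENP-A genes rose in both strains. The gene hcp-3, which encodes the main centromeric H3 of C. elegans, had 133, 136 and 137 FPKM at days 6, 9 and 12 in CN30, against 65.4, 61.5 and 63.1 at day 0, and 139.4, 133 and 148 FPKM in N2, against 55.8, 65.1 and 52.1 at day 0. Later and day-0 libraries do not overlap (log2 difference 1.08 ± 0.06 SE, adjusted p = 1.96e-05 in CN30; 1.27 ± 0.10 SE, adjusted p = 6.35e-05 in N2). Its paralogue cpar-1 had 65.3, 66.01 and 58.0 FPKM at the later days in CN30, against 30.5, 25.9 and 28.0 at day 0, and 84.4, 79.4 and 70.9 FPKM in N2, against 23.2, 29.0 and 22.5 at day 0. It rose by 1.14 ± 0.09 in CN30 and 1.62 ± 0.13 in N2 (log2 difference with SE; adjusted p = 6.11e-05 and 5.63e-05), and the calls of both genes passed under every alternative.

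Of the linker genes, 7 could be tested in CN30 and all 7 rose, whereas in N2 3 of 6 rose and none fell, beside the 46.0% of all genes in CN30 and 40.7% in N2 that rose. No linker gene of the 7 tested passed the interaction. Of the CN30 calls, 6 passed under every alternative and median-ratio rescaling ended that of hil-5, here and in N2. The highest linker genes hil-5 and hil-4 rose in both strains: hil-4 had 438, 411 and 405 FPKM at days 6, 9 and 12 in CN30, against 280.4, 244 and 241 at day 0, and 536, 503 and 478 FPKM in N2, against 266, 298 and 215 at day 0. The difference for hil-4 was 0.71 ± 0.08 in CN30 and 0.97 ± 0.13 in N2 on the log2 scale (SE; adjusted p = 0.000261 and 0.000592). For hil-5, with 508 to 534 FPKM at the later days in CN30 against 358 to 414 at day 0, it was 0.43 ± 0.08 in CN30 and 0.44 ± 0.12 in N2 (SE; adjusted p = 0.00176 and 0.0141). The low gene hil-1 had 14.9, 26.6 and 31.8 FPKM at days 6, 9 and 12 in CN30, against 1.56, 1.08 and 2.55 at day 0, and rose in N2 as well (log2 difference 3.19 ± 0.32 SE, adjusted p = 0.000146 in CN30; 2.19 ± 0.27 SE, adjusted p = 0.000418 in N2).

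Linker genes called in CN30 but not in N2 were hil-2, hil-3 and his-24, the last of which encodes a linker histone needed for silencing in the C. elegans germ line. The gene hil-3 had 91.4, 106 and 124 FPKM at days 6, 9 and 12 in CN30, against 16.6, 17.4 and 19.2 at day 0 (log2 difference 2.52 ± 0.13 SE, adjusted p = 1.7e-05). In N2 it had 23.5, 25.4 and 58.7 FPKM, against 44.3, 15.4 and 20.2 at day 0, and the groups overlap (log2 difference 0.43 ± 0.48 SE, adjusted p = 0.449). For his-24 the CN30 values were 205, 138 and 147 FPKM at the later days, against 49.9, 50.1 and 52.5 at day 0 (log2 difference 1.64 ± 0.15 SE, adjusted p = 9.91e-05). The N2 values were 55.6, 55.7 and 111 FPKM at the later days, against 89.8, 57.1 and 44.8 at day 0 (log2 difference 0.19 ± 0.35 SE, adjusted p = 0.643). The gene hil-2 had 223, 209.9 and 204 FPKM at the later days in CN30, against 92.2, 85.9 and 91.0 at day 0, and 84.5, 92.5 and 181 in N2, against 157, 94.6 and 106 at day 0. In all 3 genes the N2 day-12 library is the highest of the later N2 libraries and above every N2 day-0 library, and N2 day-0 replicate 1 is the highest of its group. The low gene hil-7 rose in CN30 (9.68, 5.15 and 7.43 FPKM at the later days, against 0.62, 0 and 0 at day 0; log2 difference 2.81 ± 0.28 SE, adjusted p = 0.000132) and could not be tested in N2, and hil-6 and hil-8 stayed below 1 FPKM. The assembled locus MXLOC_010825, which overlaps hil-7 by 192 bases on the same strand, rose in both strains. Its log2 difference was 1.13 ± 0.15 SE in CN30 and 0.85 ± 0.15 SE in N2 (limma, adjusted p = 0.000582 and 0.00219).

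**Figure D4:**
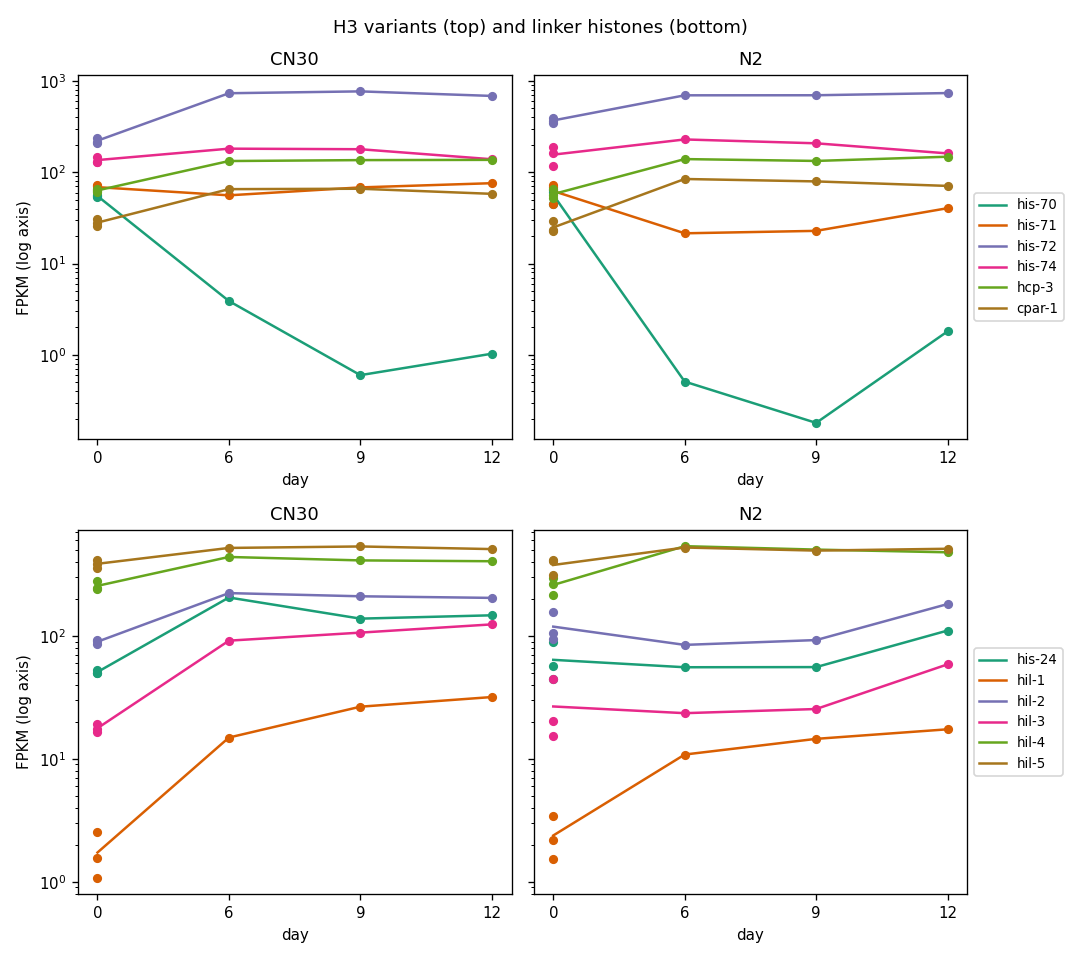
FPKM (log axis) against day of the H3.3-type and CENP-A-type genes (top) and of 6 linker genes (bottom), for CN30 (left) and N2 (right); points are libraries, with 3 at day 0, and lines join the day-0 mean to the single libraries of days 6, 9 and 12. In CN30 every linker line is higher at days 6 to 12 than at day 0, in N2 those of hil-2, hil-3 and his-24 are not at days 6 and 9 but at day 12 stand above every day-0 library, and his-70 drops to 3.89 FPKM or less in both strains.

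The second comparison sets CN30 against N2 at the same age. At day 0 a few core genes were higher in CN30, among them H2A genes of chromosome II and cluster b of chromosome IV, while the H2B gene his-48, the H4 gene his-60 and the H3.3-type gene his-72 were lower. Of the 69 members tested, 8 were called higher and 3 lower, and 58 did not pass, and at day 0 hil-7 and the H4 genes his-1, his-5 and his-38 were too low as well. Counting identical genes once left 5 of 51 higher and 3 lower. Over all genes tested 3.68% were called, 2.07% higher and 1.61% lower. The median log2 difference was 0.49 for the members and 0.08 for all genes tested, or 0.41 relative to all genes. The members called higher were his-12 and his-43, his-29 and his-34, his-30 and his-33, his-3 and his-63, and those called lower were his-48, his-60 and his-72. These calls rest on few libraries: without any 1 of the CN30 libraries a single member was called, without N2 replicate 1 or 3 there were 4, and without N2 replicate 2 there were 25, of which 20 higher. None of the 11 passed under every alternative.

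The largest fall was that of his-48, an H2B gene in cluster c of chromosome IV (11324745 to 11325116). It had 337, 259.6 and 392 FPKM in CN30 at day 0, against 1009, 1079.5 and 808 in N2 (log2 difference -1.56 ± 0.18 SE, adjusted p = 0.00797). At days 6, 9 and 12 it had 372, 204 and 230.5 FPKM in CN30, against 2092, 1852 and 1202 in N2 (log2 difference -2.68 ± 0.17 SE, adjusted p = 0.0183). No CN30 library reached any N2 library of either age. The H2B copies his-58 and his-66 of the same cluster had higher values in CN30, with 1478, 1292 and 1283 FPKM in CN30 at day 0, against 993, 1015 and 769 in N2, a difference that did not pass (log2 difference 0.55 ± 0.13 SE, adjusted p = 0.0809). At the later days they had 2654, 2944 and 1759 FPKM in CN30, against 2096, 1813 and 1219.6 in N2 (log2 difference 0.52 ± 0.09 SE, adjusted p = 0.0371), a call that passed in 2 of 11 alternatives.

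Summed over his-48, his-58 and his-66, the H2B level of cluster c overlapped between the strains, counting both identical genes: 3292, 2844 and 2958 FPKM in CN30 at day 0, against 2995, 3110.1 and 2346 in N2, and 5681, 6092 and 3749 FPKM in CN30 at days 6, 9 and 12, against 6285, 5479 and 3641 in N2. The ratio of CN30 to N2 means was 1.08 at day 0 and 1.01 later. Of the sum of his-48, his-58 (counted once) and his-62, the H2B gene of cluster a, his-48 took 11.2 to 15.5% in CN30 at day 0, against 35.7 to 36.1% in N2. At the later days it took 4.61 to 8.99% in CN30, against 36.4 to 37.0% in N2. Whether RNA of his-48 differs, or only the split of reads among near-identical copies, cannot be told apart with these values.

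H4 and H3 copies on chromosome IV were compared in the same way. The H4 gene his-60 of cluster a (7487681 to 7487992) had 543, 496 and 632 FPKM in CN30 at day 0, against 1009.6, 1261 and 948 in N2 (log2 difference -0.94 ± 0.14 SE, adjusted p = 0.0198). At the later days it had 508, 399 and 325 FPKM in CN30, against 1149, 1020.1 and 771 in N2 (log2 difference -1.26 ± 0.06 SE, adjusted p = 0.0173), and the strains do not overlap at either age. The H4 gene his-64 of cluster c was higher at the later days, with 4571, 5939.6 and 4584 FPKM in CN30, against 3037, 2749.8 and 2230.0 in N2 (log2 difference 0.91 ± 0.12 SE, adjusted p = 0.0297). Of the sum of his-60, his-64 and his-46, his-64 took 50.8 to 52.3% in CN30 at day 0, against 34.9 to 35.9% in N2, and 59.0 to 64.0% in CN30 at the later days, against 41.3 to 44.0% in N2. That H4 sum overlapped at day 0 (4257, 3960.1 and 4614 FPKM in CN30, against 4367, 5218 and 3774 in N2), and at days 6, 9 and 12 it was higher in CN30 on each day (7753, 9284 and 7171 FPKM in CN30, against 7229.9, 6656 and 5069 in N2). Among H3 genes his-63 took 44.3 to 46.8% of the sum of his-59, his-63 and his-45 in CN30 at day 0, against 32.9 to 33.7% in N2, and 45.7 to 49.2% in CN30 at the later days, against 29.2 to 31.6% in N2. The H3 sum did not overlap at day 0, with 2888, 2604 and 2537 FPKM in CN30, against 2404, 2401 and 2211 in N2. At days 6, 9 and 12 it was 4713, 4569 and 2583 FPKM in CN30, against 4363, 3837 and 2443 in N2, higher in CN30 on each day with ranges that overlap. These sums were not tested. The gene his-63 itself had 1316, 1219 and 1124 FPKM in CN30 at day 0, against 791, 791 and 745 in N2 (log2 difference 0.65 ± 0.08 SE, adjusted p = 0.0105).

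**Figure D5:**
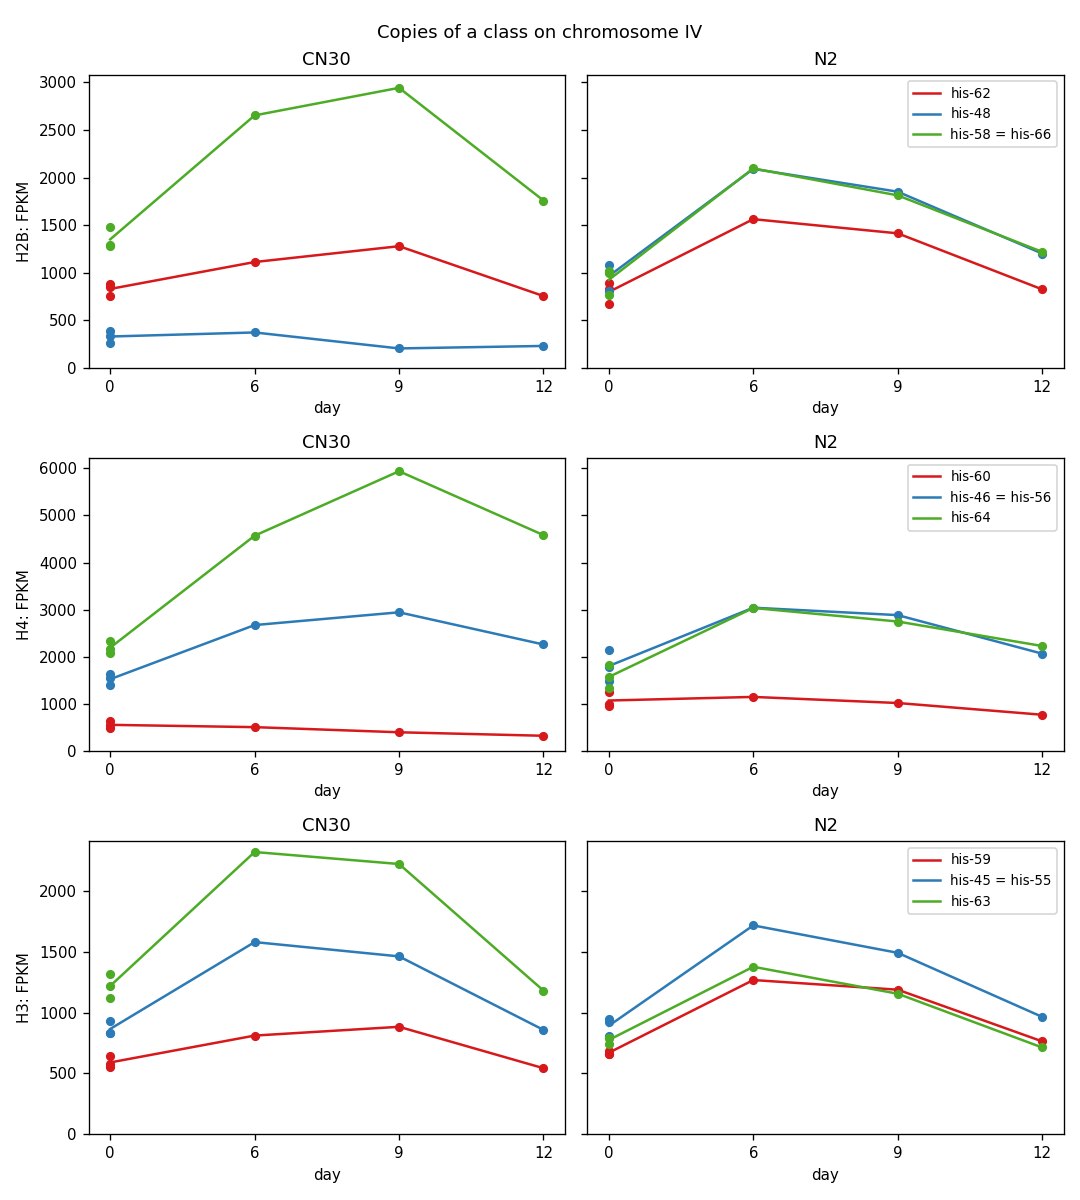
FPKM against day of the copies of H2B (top), H4 (middle) and H3 (bottom) in clusters a and c of chromosome IV, for CN30 (left) and N2 (right); points are libraries, with 3 at day 0, and lines join the day-0 mean to the single libraries of days 6, 9 and 12. In N2 his-48 runs along the line of his-58, whereas in CN30 it stays between 204 and 392 FPKM, far below his-58, and his-64 reaches 5939.6 FPKM in CN30 only.

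Other calls at day 0 concerned smaller clusters. The H2A genes his-12 and his-43 had 209, 134 and 135 FPKM in CN30, against 67.2, 49.8 and 39.7 in N2 (log2 difference 1.59 ± 0.24 SE, adjusted p = 0.0233). The H2A gene his-16, which an assembled locus joins to his-12, had 138.96 FPKM in its lowest CN30 library and 267 and 427 in the others, against 269, 49.8 and 335 in N2, and the ratio of his-16 to his-12 ranged from 0.335 to 8.43 over the 12 libraries. The summed H2A level of the chromosome II cluster was 557, 534 and 698 FPKM in CN30, against 404, 149 and 414 in N2. The H2A gene his-3 had 74.8, 74.9 and 87.6 FPKM in CN30, against 49.5, 33.3 and 45.4 in N2 (log2 difference 0.89 ± 0.16 SE, adjusted p = 0.0365). In cluster b of chromosome IV the H2B genes his-29 and his-34 (log2 difference 0.93 ± 0.15 SE, adjusted p = 0.028) and the H2A genes his-30 and his-33 (log2 difference 0.89 ± 0.17 SE, adjusted p = 0.0463) stood at 3.59 to 5.14 FPKM in CN30, against 1.25 to 2.26 FPKM in N2, levels at which the pseudocount matters.

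At days 6 to 12 the core genes called higher in CN30 lay mostly in the clusters of chromosome V and in clusters b and c of chromosome IV, with the linker genes hil-1 and hil-3 and the H3.3-type gene his-71 beside them. The H2B gene his-48 and the H4 gene his-60 were again lower. With day as a factor, 22 of the 73 members tested were higher in CN30 and 6 lower, and 45 did not pass. Counting identical genes once left 18 of 55 higher and 6 lower. Of all 13015 genes tested 1690 (13%) were called, 9.77% higher and 3.21% lower. The median log2 difference was 0.76 for the members and 0.06 for all genes, or 0.70 relative to all genes. Cluster b of chromosome V gave 7 of the 22, among them the identical his-51, his-53, his-21 and his-19. All 11 of its genes had no overlap between the strains (34.7% of all genes tested had none). Cluster d and cluster a of chromosome V gave 3 each. The design is thin, with 1 library per strain and day: 0 members were called with no filter on low genes or without the day-9 library of either strain, 2 without a day-6 library, and 41 or 42 without the day-12 library of CN30 or N2. With no day term 7 were called, and none of the 28 passed under every alternative.

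For cluster b of chromosome V the CN30 sums were 3302, 3151 and 2321 FPKM at days 6, 9 and 12, against 1135, 889 and 1315 in N2, a ratio of means of 2.63. The identical H2A genes his-51, his-53, his-21 and his-19 had 298, 293 and 208 FPKM in CN30, against 99.7, 71.1 and 116 in N2 (log2 difference 1.48 ± 0.23 SE, adjusted p = 0.0327). The H2B gene his-54 (log2 difference 1.34 ± 0.21 SE, adjusted p = 0.0341) and the H3 gene his-17 (log2 difference 1.34 ± 0.13 SE, adjusted p = 0.0241) were higher as well. At day 0 the same cluster summed to 321, 317 and 332 FPKM in CN30, against 305, 87.5 and 296 in N2, and none of its 11 genes was called. In cluster b of chromosome IV his-32 had 254, 249 and 167 FPKM in CN30 at the later days, against 75.8, 53.6 and 107 in N2 (log2 difference 1.52 ± 0.30 SE, adjusted p = 0.0445).

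Among genes outside the clusters hil-3 was higher in CN30 at the later days (91.4, 106 and 124 FPKM in CN30, against 23.5, 25.4 and 58.7 in N2; log2 difference 1.67 ± 0.21 SE, adjusted p = 0.029), as were his-71 (55.9, 68.3 and 75.9 FPKM in CN30, against 21.5, 22.8 and 40.4 in N2; log2 difference 1.26 ± 0.14 SE, adjusted p = 0.0278) and hil-1 (log2 difference 0.70 ± 0.14 SE, adjusted p = 0.0436). The hil-1 call passed in 1 of 11 alternatives. The assembled locus MXLOC_015799, which overlaps hil-1 on the same strand, did not pass (log2 difference 0.06 ± 0.15 SE, adjusted p = 0.806). The linker gene hil-4 was lower (log2 difference -0.27 ± 0.05 SE, adjusted p = 0.0429). For hil-2 and his-24 the strains do not overlap but the test did not pass (0.91 ± 0.25 and 1.19 ± 0.28 on the log2 scale, adjusted p = 0.0734 and 0.0565). The other members called lower were the H2A gene his-68 on chromosome I, the H3 gene his-40 on chromosome X and the H3 gene his-59 in cluster a of chromosome IV. The gene his-68 had 163, 123 and 76.2 FPKM at days 6, 9 and 12 in CN30, against 285, 263 and 121 in N2 (log2 difference -0.85 ± 0.10 SE, adjusted p = 0.0278), and CN30 was the lower of each day's pair.

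The third comparison asks whether the difference between old and young worms was itself different in CN30 and N2. Of 73 members tested, 1 passed, the H3.3-type gene his-72, against 315 of all 15719 genes tested (2%, with 1.15% higher and 0.852% lower). A total of 14 members had an unadjusted p under 0.05 (limma), a count with no share of all genes beside it here. The log2 rise of his-72 was larger in CN30 by 0.77 ± 0.11 (SE, adjusted p = 0.01), and it passed under all 17 alternatives, with adjusted p between 0.00482 and 0.0484. The strains differed at day 0, where his-72 had 240.0, 215 and 211 FPKM in CN30, against 396, 369 and 344 in N2 (log2 difference -0.73 ± 0.08 SE, adjusted p = 0.00721), and overlapped at the later days (log2 difference 0.04 ± 0.07 SE, adjusted p = 0.729). The day-0 call was lost without CN30 replicate 2 or without CN30 replicate 3. The H2A gene his-35 (log2 difference 0.80 ± 0.19 SE, adjusted p = 0.0585) and the linker genes hil-3 (2.09 ± 0.55 SE, adjusted p = 0.0707), hil-2 (1.28 ± 0.37 SE, adjusted p = 0.0864) and his-24 (1.45 ± 0.42 SE, adjusted p = 0.0867) missed the threshold. Without the N2 day-12 library 13 members were called, 10 of them with the larger log2 difference in CN30, and without N2 day-0 replicate 2 there were 10, of which 9 so. The shares of all genes called in these fits are not given here.

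Genes that serve histones, from lists of known names, mostly rose with age as well. Of 20 tested genes for histone supply (processing of histone mRNA ends and histone chaperones), 18 rose and 0 fell in CN30, and 18 rose and 1 fell in N2. Of 31 genes for histone modifying enzymes 29 rose and 1 fell in CN30, and 25 rose and 1 fell in N2. All 29 DNA replication genes tested rose in both strains, with medians of 1.25 in CN30 and 1.48 in N2 on the log2 scale. These shares stand beside the 46.0% of all genes in CN30 and 40.7% in N2 that rose. Between the strains at days 6 to 12 no histone supply gene was called (limma, 4 of 20 with an unadjusted p under 0.05), 3 of 29 replication genes were lower in CN30 and none higher, and 3 modifying enzymes were higher and 1 lower, beside 9.77% of all genes higher and 3.21% lower.

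Cell type markers moved with age too. All 15 oocyte and maternal markers rose in both strains, with sums of 6774, 6619 and 5982 FPKM at days 6, 9 and 12 in CN30, against 2444, 2241 and 2129 at day 0, and of 7888, 7997 and 7009 FPKM in N2, against 1819, 2655 and 1652 at day 0. Of 9 germline markers 7 rose and 1 fell in each strain. Of all genes tested with age, 46.0% rose and 34.9% fell in CN30, and 40.7% rose and 32% fell in N2. The 10 cuticle markers summed to 77.9 to 1438 FPKM at the later days in CN30, against 9689 to 10967 at day 0, and the 6 body-wall muscle markers to 459 to 830 FPKM, against 4358 to 4906. In N2 the cuticle sums were 381 to 686 FPKM at the later days, against 9366 to 17808 at day 0, and the muscle sums 344 to 395 FPKM, against 4830 to 5630. No marker of any list was at 0 in all libraries. Between the strains at days 6 to 12, 8 of 15 oocyte markers and 2 of 9 germline markers were lower in CN30 and none higher. By contrast, 2 of 6 body-wall muscle markers and 2 of 4 neuron markers tested were higher in CN30 and none lower. No sperm, cuticle or intestine marker was called. Over all genes tested, 9.77% were higher and 3.21% lower. The 5 intestine markers summed to 1577 to 5564 FPKM at the later days in CN30, against 1547 to 1739.9 at day 0, and in N2 to 6826 and 7451 FPKM at days 6 and 9 and 1877 at day 12, against 4026 in day-0 replicate 2 and 1651 and 1542 in the other two. Of 4 neuron markers tested 1 rose and 1 fell in CN30, and 1 rose and 3 fell in N2. The part of these shifts in the histone differences was not tested.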

How the data were processed

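RNA-seq values of 12 libraries of whole worms were used, 6 of CN30 and 6 of N2, grouped by the strain and age in the labels. FPKM values per gene and library were made by the authors and used as deposited; for these the submitters' processing notes list WBcel235 as the build and StringTie and HISAT as tools, with no version and no role. The list of assembled transcripts, with exon numbers, lengths and positions per the file headers, served to find loci that overlap histone genes. Low FPKM values showed no whole-read steps, so read counts and depth are unknown and limma was used in place of a count test. Positions and coding lengths came from the Ensembl annotation of WBcel235. Classes were assigned by coding length, since product names and protein sequences were not used here.

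Each comparison was fitted across all genes with limma 3.58.1 in R 4.3.3 (moderated tests with a mean trend) on log2(FPKM + 1), after keeping genes with at least 1 FPKM in 3 libraries of the fit. A fold on this scale understates the change of low genes. P-values were two-sided and Benjamini-Hochberg adjusted over all genes tested, with calls under 0.05; all adjusted p-values in the text come from these fits. Fits were made for CN30 against N2 at day 0, for CN30 against N2 at days 6 to 12 with day as a factor, for days 6 to 12 against day 0 within each strain, and for the strain by age interaction. An exact permutation test of 3 against 3 libraries cannot go below 0.1 and was not used. The fitting code was tested on simulated data. Summaries were made with pandas 2.3.3 and NumPy 2.4.6 under Python 3.11.15, and figures with Matplotlib 3.10.9.

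The histone genes and the companion lists were chosen with earlier results of these data known. Values are given for variants and linker genes, for up to 5 rises and 5 falls per comparison with the largest differences among called genes of at least 5 FPKM without overlap, for genes with identical values, for the most abundant gene of each core class and for overlapping loci. The genes his-1, his-7, his-8, his-16, his-17, his-18, his-40, his-54, his-59, his-62 and his-68 stand outside this rule and were chosen after their values were seen. Alternatives were another pseudocount, no filter, quantile normalization, median-ratio rescaling, a replicate block, no day term, leaving out each library, counting identical genes once and leaving out genes that overlap an assembled locus.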

Additional observations from a re-analysis of the deposited data

Results flagged for a closer look

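The H3.3-type gene his-72 was the only histone gene whose difference between days 6 to 12 and day 0 itself differed between the strains in the test of the interaction. Its log2 difference was larger in CN30 than in N2 by 0.77 (limma, adjusted p = 0.01). In CN30 all 3 later libraries were above all 3 day-0 libraries, and so they were in N2. The strains were apart at day 0 and overlapped at the later days, each of which is 1 library per strain.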

How the results depend on the processing

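The counts of histone genes called with age were within 1.5 times their value under every alternative, at 44 to 64 in CN30 and 39 to 48 in N2 when 1 library was left out. Those between the strains were not. At day 0 the count of 11 became 3 with a replicate block and 1 to 25 when 1 library was left out. At days 6 to 12 the count of 28 became 0 with no filter on low genes, 7 with no day term and 0 to 42 when 1 library was left out. The interaction count of 1 became 1 to 13 when 1 library was left out. The cause of these shifts was not tested. The H4 gene his-60 in N2, not called under the stated settings, had a log2 difference of -0.14 with age and of 0.50 under quantile normalization. It passed in 1 of 10 alternatives in N2 (limma, adjusted p = 0.0337). In CN30, where it was not called under the stated settings either, it turned to 0.29 against -0.46, and the value of 0.29 did not pass. It passed in 2 of 10 alternatives in CN30, each time as a fall. The H2B gene his-48 in CN30, also not called, turned to 0.16 against -0.32, and the value of 0.16 did not pass. It passed in 1 of 10 alternatives, as a fall.

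Same-numbered day-0 libraries of the strains did not deviate together (correlations 0.0589, -0.0347 and -0.0170), so the numbers are not read as pairs, and not every library correlated best with its own number. The block was fitted for day 0 and for the interaction, whose count stayed at 1. Median-ratio rescaling shifted the median of all genes by -0.25 in CN30 and -0.15 in N2 for age by -0.14 between the strains at days 6 to 12 and by -0.11 in the interaction. Quantile normalization shifted it by 0.14 for age in N2 and by -0.10 between the strains at days 6 to 12. Depth is unknown, so the precision of low genes cannot be given.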
